A study of Caenorhabditis elegans with 4 samples.

Results

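LIN-61 peaks on the right arm of Caenorhabditis elegans chromosome IV were taken from the authors' whole-series peak list as the peaks whose midpoint lay in IV:11662529-17493793 (genome build WS220), the last of 3 equal sections of the chromosome. This section is 5.83 Mb long and held 744 of the 14662 peaks in that list. The same rule gave 418 of 9958 peaks in replicate 1 and 669 of 13486 peaks in replicate 2. Binding had been mapped by ChIP-seq, the sequencing of DNA that is recovered with a protein by an antibody, here an affinity-purified rabbit polyclonal antibody against LIN-61 (HM4077). All larvae were of the wild-type strain N2, collected at the L3 stage as mixed populations of males and hermaphrodites, and their chromatin had been crosslinked (EGS, then formaldehyde) and sonicated. There were 2 ChIP libraries, and the 2 input DNA libraries were not analysed here. Replicates are numbered in the labels, but separate cultures are not mentioned, and their spread may therefore be technical. Whole larvae were used, so that a peak cannot be assigned to a tissue.

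LIN-61 is a chromatin protein built of MBT repeats and is encoded by a synMuv B gene, a class known for chromatin-based repression of transcription. The arms of C. elegans chromosomes are rich in repeats and in repressive histone marks, and the centres are dense in genes. Chromosome IV also carries the large piRNA gene clusters: piRNAs, called 21U-RNAs in the worm, are short RNAs that guide the Argonaute protein PRG-1 to silence foreign and transposon sequences in the germ line. Of 15363 piRNA genes in the RefSeq annotation of WBcel235, 14714 (95.8%) were assigned to chromosome IV. That annotation is of another build than the peaks, so none of its coordinates was used. The right piRNA band was set from textbook bounds, rounded to whole 500 kb windows, as 13.5 to 17 Mb, which is 3.5 Mb of the right arm. A smaller left band was set likewise at 4.5 to 7 Mb, across the boundary between the left arm and the centre.

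The right arm carried fewer LIN-61 peaks than the left arm of the same chromosome and more than its centre. In replicate 1 there were 71.7 peaks per Mb on the right arm, 215 on the left arm and 39.6 in the centre. In replicate 2 there were 115 peaks per Mb on the right arm, 243 on the left arm and 57.6 in the centre. The authors' whole-series list gave 128 peaks per Mb on the right arm, 253 on the left arm and 70.5 in the centre. The order of the 3 sections was the same in each list. The mean density was 93.2 ± 30.4 peaks per Mb on the right arm, against 229 ± 20 on the left arm and 48.6 ± 12.7 in the centre (SD, n = 2). The ratio of right to left arm was 0.333 in replicate 1 and 0.472 in replicate 2, a mean of 0.402 ± 0.098, with p = 0.5 in an exact permutation test, two-sided, that flips the sign of the log2 ratio of each replicate. That is the smallest p that 2 replicates allow. The right arm over the centre gave 1.81 in replicate 1 and 1.99 in replicate 2 (the same exact permutation test, p = 0.5). Among the 12 arms of the 6 chromosomes the right arm of IV ranked 9 by density in replicate 1 and 10 in replicate 2, counted from the densest.

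Peaks covered a smaller part of the right arm as well. In replicates 1 and 2 they took up 3.02% and 6.11% of it, against 9.65% and 14.8% of the left arm and 1.34% and 2.68% of the centre. No file gave a read count, so the depth behind these lists is unknown, and its part in the larger number of peaks in replicate 2 was not tested.

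The first question was whether the right arm was sparse throughout or only in part. Against the left arm of IV, one of the denser arms, it was sparse in every 500 kb window. All 12 windows of 500 kb, including a partial one at each edge, lay below the mean density of the left arm in both replicates. The mean density of the genome was 99.3 (replicate 1) and 134 (replicate 2) peaks per Mb, and 11 and 9 of the 12 windows were below it. The window from 13 Mb was above that mean in both replicates, and those from 13.5 Mb and 16.5 Mb in replicate 2 alone. The innermost partial window, from the section boundary to 12 Mb, was the one window that also lay below the mean of the centre, with 5 peaks in the first replicate and 11 in the second. Its neighbour, starting at 12 Mb, was the sparsest whole one, with 22 and 38 peaks in the replicates and 48 in the whole-series list. The densest window started at 13 Mb and held 64 peaks in replicate 1, 81 in replicate 2 and 94 in the whole-series list. It lies just on the centre side of the piRNA band.

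The other windows ran from 28 to 48 peaks in replicate 1 and from 44 to 83 in replicate 2. From 12.5 to 13 Mb there were 40 peaks in replicate 1 and 52 in replicate 2. The 7 windows of the piRNA band ran from 29 to 48 peaks in replicate 1 and from 44 to 83 in replicate 2. The last partial window, beyond 17 Mb, held 28 peaks in replicate 1 and 58 in replicate 2. The densest whole window had 2.91 times the peaks of the sparsest in replicate 1, and in replicate 2 the densest, which there was the window from 16.5 to 17 Mb with 83 peaks, had 2.18 times the peaks of the sparsest. The 2 replicates did not rank the windows of the band alike: the one from 16 Mb was the highest of them in replicate 1 with 48 peaks and held 55 in replicate 2, where 4 others were higher.

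At this scale the innermost part of the right arm came closest to the level of the centre. The limit of 12.5 Mb used here was chosen after the windows had been seen. Up to 12.5 Mb the density in peaks per Mb was 32.2 in replicate 1, 58.5 in replicate 2 and 76.4 in the whole-series list, which was 0.814, 1.02 and 1.08 times that of the centre. Beyond 12.5 Mb it was 78.3 peaks per Mb in replicate 1, 124 in replicate 2 and 136 in the whole-series list. This outer stretch lay at 1.98 and 2.15 times the density of the centre and at 0.364 and 0.511 times that of the left arm in replicates 1 and 2.

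Set against the left arm at equal distance from the chromosome end, the right arm lacked the dense block of peaks that the left arm carried. In 500 kb steps from the end, the right arm ran from 44 to 118 peaks per Mb in replicate 1, and the left arm from 4 to 430. In replicate 2 the right arm ran from 76 to 166 peaks per Mb, and the left arm from 32 to 446. The right arm was lower in both replicates in 8 of 11 steps, among them each of the outer 7.

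**Figure D1:**
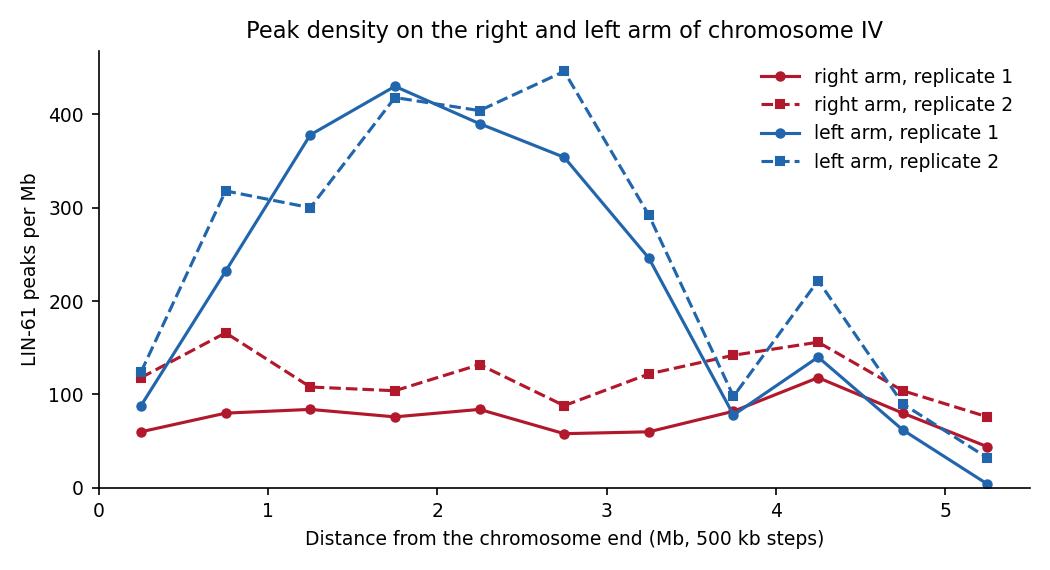
Peaks per Mb (y axis) in 500 kb steps from the chromosome end (x axis, Mb) on the right arm (red) and the left arm (blue) of chromosome IV, with solid lines for replicate 1 and dashed lines for replicate 2. The right arm stays between 44 and 166 peaks per Mb, and the left arm reaches 430 in replicate 1 and 446 in replicate 2 within its outer 3.5 Mb.

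In the outer 3.5 Mb the density on the right arm was 71.7 (replicate 1) and 120 (replicate 2) peaks per Mb, against 303 and 329 on the left arm. In the next 2 Mb inward the right arm had 81.0 and 119.5 peaks per Mb, against 71.0 and 110.5 on the left arm. The ratio of right to left was thus 0.237 and 0.364 in the outer steps and 1.14 and 1.08 in the inner ones. The whole-series list gave 0.373 and 1.28. The limit of 3.5 Mb was chosen after the steps had been seen, so these ratios are given without a test.

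The evenness of the right arm was measured as the coefficient of variation (CV), the SD over the mean, of the peak number in 500 kb windows. Over its 10 whole windows counted from position 1 of the chromosome it was 0.300 in replicate 1 and 0.248 in replicate 2. The left arm had 0.698 and 0.584, and the centre 0.397 and 0.367. In both replicates this was the lowest CV of the 18 sections of the genome, next to the right arm of chromosome I with 0.319 and 0.259. The place depended on where the windows begin and on the list. In the whole-series list the right arm of IV had 0.222, and the right arm of I 0.216. Counted from the start of each section, the windows also took in the sparse innermost part, and the CV was 0.437 in replicate 1 and 0.355 in replicate 2. Then 3 sections in replicate 1 and 4 in replicate 2 were lower, of which the right arm of I was the only arm.

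**Figure D2:**
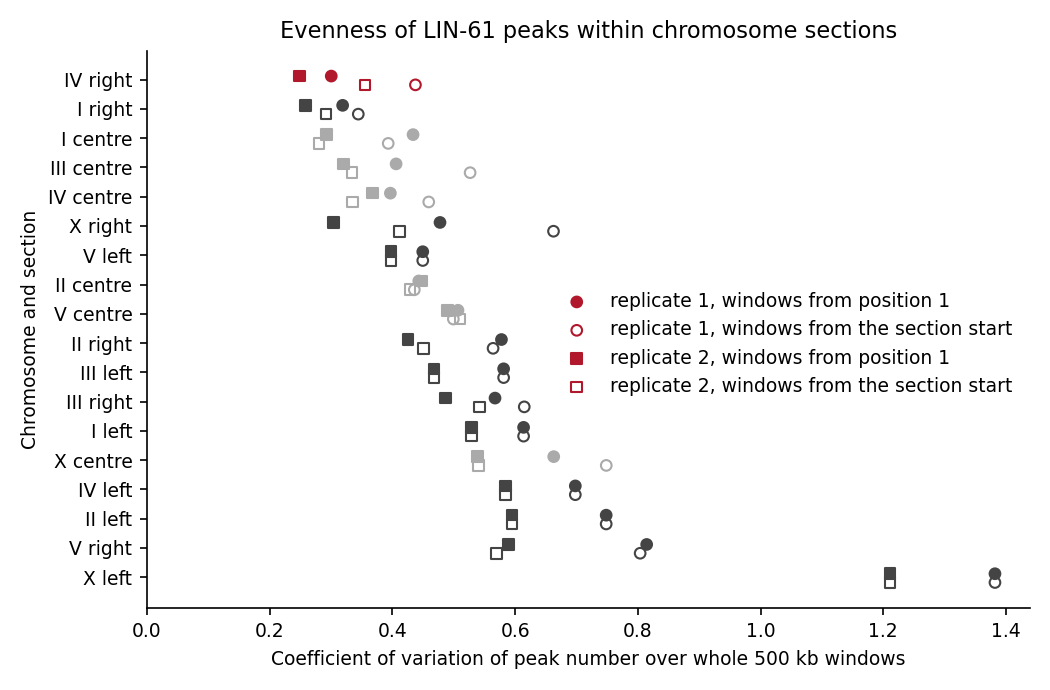
Coefficient of variation of the peak number over whole 500 kb windows (x axis) in each of the 18 chromosome sections (y axis), with circles for replicate 1 and squares for replicate 2, filled for windows counted from position 1 and open for windows counted from the start of the section; the right arm of IV is red, other arms are dark and centres are pale. With windows from position 1 the right arm of IV is lowest at 0.300 and 0.248, and with windows from the start of the section it stands at 0.437 and 0.355.

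Within the 500 kb windows the peaks were patchy, more so in replicate 1. The 57 whole windows of 100 kb held from 0 to 36 peaks in replicate 1 with a median of 5, from 1 to 28 in replicate 2 with a median of 11, and from 2 to 28 in the whole-series list with a median of 11. The median window of the left arm held 16 peaks in replicate 1 and 21.5 in replicate 2, and that of the centre 3 and 5. Of the right arm windows, 8 in replicate 1 and 5 in replicate 2 reached the median of the left arm. At the other end, 23 in replicate 1 and 11 in replicate 2 were at or below the median of the centre. The arm was thus not a block of uniform density at this scale.

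**Figure D3:**
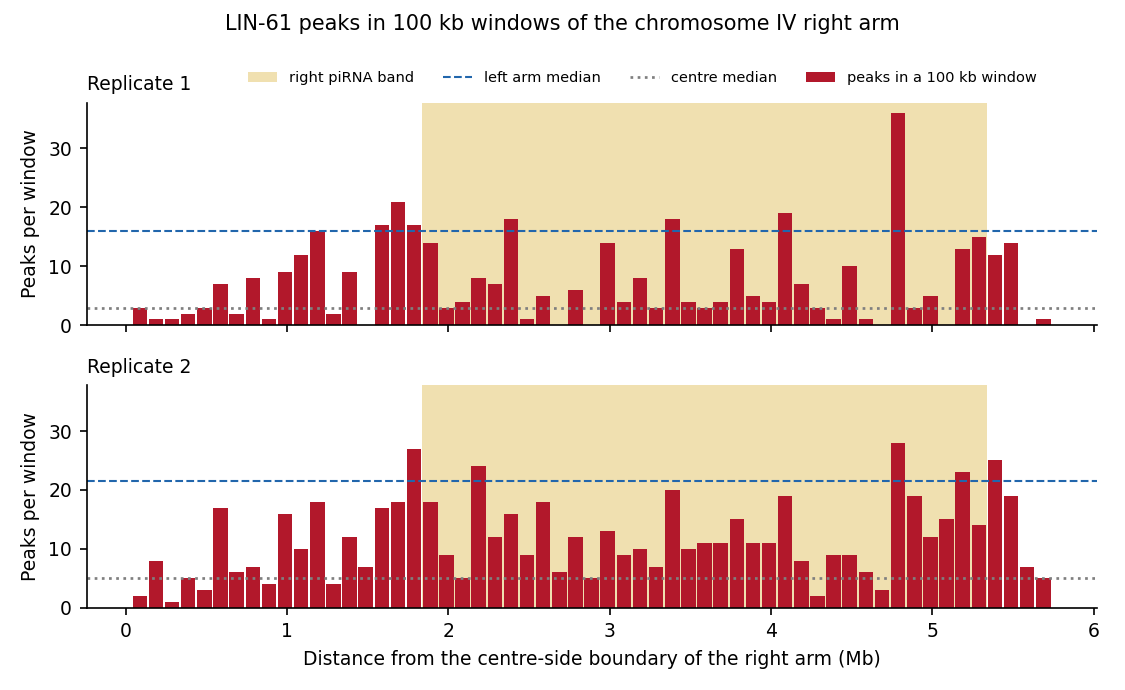
Peaks per whole 100 kb window (y axis) along the right arm of chromosome IV by distance from its centre-side boundary (x axis, Mb) in replicate 1 (top) and replicate 2 (bottom), with the right piRNA band shaded and lines at the median window of the left arm (dashed) and the centre (dotted). The windows range from 0 to 36 peaks in replicate 1 and from 1 to 28 in replicate 2, and high and low windows lie both inside and outside the band.

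The CV over 100 kb windows was 0.974 and 0.568 in replicates 1 and 2, against 0.800 and 0.676 on the left arm and 0.922 and 0.772 in the centre. Counted from the highest of the 18 sections, the right arm ranked 9 by this CV in replicate 1 and 17 in replicate 2. By variance over mean, a dispersion index that is near 1 for a random scatter, the right arm had 6.94 and 3.78, the left arm 13.9 and 11.2, and the centre 3.40 and 3.45. By this index the right arm ranked 10 and 15 of the 18 sections. With peaks less than 500 bp apart merged, its index was 3.36 in replicate 1 and 2.11 in replicate 2. In replicate 1, 50% of the peaks in whole windows lay in 12 of the 57 windows, and in replicate 2 in 17 of them.

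The densest 100 kb window by the mean of the replicates was the one from 16.4 to 16.5 Mb, inside the piRNA band. It held 36 peaks in replicate 1, 28 in replicate 2 and 25 in the whole-series list, where the windows from 12.8, 13.4, 13.8 and 17 Mb held more, with 26 to 28. The next densest by the mean of the replicates were the neighbours from 13.4 Mb, with 17 and 27 peaks, and from 13.3 Mb, with 21 and 18 peaks in replicates 1 and 2. By the mean of the replicates the sparsest whole windows lay from 11.9 Mb, with 1 peak in each replicate, and from 16.3 Mb, with 0 and 3. The windows from 11.7, 12.5, 14.5 and 15.9 Mb tied for the next place with a mean of 2.5 peaks. The densest window and one of the sparsest were therefore neighbours.

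None of the 57 whole windows was empty in both replicates, while the partial window at the inner edge, up to 11.7 Mb, was. In replicate 1, 6 of 57 windows (10.5%) held no peak, against 14.5% of the 999 windows of the genome. In replicate 2 none of the 57 was empty, against 5.21% over the genome. The genome shares include the X chromosome, whose left arm, centre and right arm had 28.8%, 51.7% and 31.0% in replicate 1. The left arm of IV had 6.90% and 1.72% in replicates 1 and 2, and its centre 14.0% and 5.26%. In replicate 1 the other arms of the autosomes ranged from 0% (both of III) to 15.9% (right arm of V). The 6 windows that were empty in replicate 1 begin at 13.1, 14.3, 14.5, 16.3, 16.7 and 17.2 Mb. They held 7, 6, 5, 3, 15 and 7 peaks in replicate 2. The median width of these 43 peaks was 303 bp and their median score percentile within the replicate 2 list 40.7. In its top 25% by score were 3 of the 43, against 130 of the 669 on the whole right arm. The score is the authors' own, of a kind that is not stated, and serves here only to rank peaks within a list. The peaks of replicate 2 on the whole right arm had a median width of 309 bp and a median percentile of 45.1. Those in the empty windows were close to the whole arm in width and lower in score, with a smaller share in the top 25%. The choice of windows without a replicate 1 peak largely leaves out peaks with a partner there, which the whole arm includes. Right arm peaks of replicate 2 that overlapped no replicate 1 peak had a median width of 258 bp and a median percentile of 37.8. Against these, the peaks in the empty windows were not lower in score.

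Replicate 2 had more peaks in 43 of the 57 windows, replicate 1 in 10, and 4 were equal. Across these windows the peak numbers of the 2 replicates had a Pearson correlation of 0.752 and a Spearman correlation of 0.757. On the left arm they were 0.920 and 0.935 over 58 windows, and in the centre 0.611 and 0.646 over 57 windows. Windows are neighbours on 1 chromosome and share their libraries, so these values describe the lists and carry no test.

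Whether the piRNA band held fewer peaks per Mb depended on what it was set against. It held 259 peaks in replicate 1, 429 in replicate 2 and 460 in the whole-series list. That gave 74.0, 123 and 131 peaks per Mb, against 68.2, 103 and 122 in the rest of the right arm. The ratio was 1.08 in replicate 1 and 1.19 in replicate 2, a mean of 1.14 ± 0.07 (SD, n = 2; exact sign-flip permutation test, p = 0.5, the smallest possible), and 1.08 in the whole-series list. In peak number the direction turned when the innermost part up to 12.5 Mb was left out of the rest, an alternative added after the data had been seen. Then the band's 74.0, 123 and 131 peaks per Mb stood against 88.4, 128 and 147 in the rest, with ratios of 0.837, 0.959 and 0.892 (mean of the replicates 0.898; exact permutation test, p = 0.5). The 1 Mb next to the band, from 12.5 to 13.5 Mb, had 104, 133 and 158 peaks per Mb. On the whole centre side of the band there were 71.3 and 99.0 peaks per Mb in the 2 replicates, and on the end side 56.7 and 117. By covered bases the mean ratio of the band to the whole rest of the arm was 1.39. Peaks covered 3.40% of the band in replicate 1 and 6.88% in replicate 2. On the centre side they covered 2.37% and 4.52%, and in its densest window, from 13 Mb, 4.17% and 7.88%. Of the whole stretch beyond 12.5 Mb, band included, they covered 3.33% and 6.67%, less than of the band alone. By covered bases the direction therefore did not turn when the innermost part was left out.

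In both replicates the median peak in the band was also longer and higher in score than that between the band and the centre, the innermost part included, which is given as a description. Median widths in the band were 285 bp (replicate 1) and 313 bp (replicate 2), against 227 and 300 bp on its centre side. On the end side, which held only 28 peaks in replicate 1 and 58 in replicate 2, it was 346 and 327 bp. The median score percentile within each list was 48.8 and 50.2 in the band, against 33.5 and 39.3 on its centre side. On the end side it was 57.0 in replicate 1, above the band, and 46.3 in replicate 2, below it. Peaks of 1 kb or more numbered 24 of 259 in replicate 1 and 55 of 429 in replicate 2 in the band. There were 3 of 131 and 15 of 182 on the centre side, and 3 of 28 and 5 of 58 on the end side. The higher values of the band thus held against its centre side and not in both replicates against its end side.

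The right piRNA band had a higher density than the left one in each list. Against its 74.0, 123 and 131 peaks per Mb in replicate 1, replicate 2 and the whole-series list, the left band carried 46.8, 65.2 and 90.0, and the right band over the left gave 1.58, 1.88 and 1.46. The left band crosses a section boundary. Inside the left arm it had 66.1 and 80.4 peaks per Mb, against 260 and 291 on the left arm before the band. Inside the centre it had 24.8 and 47.9 peaks per Mb, against 43.3 and 60.1 in the centre after the band. Position within the chromosome and membership in a piRNA band cannot be told apart for the left band.

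Stretches without a peak were the second measure of sparseness. In replicate 1 the longest on the right arm was 173 kb and 11 were over 100 kb. In replicate 2 the longest was 91.6 kb, and in the whole-series list 80.7 kb. The left arm had a longer one in both replicates, of 260 kb and 209 kb, as had the centre with 247 kb and 146 kb. Stretches over 50 kb numbered 36 in replicate 1 and made up 58.1% of the right arm. In replicate 2 there were 15, which made up 17.8%. On the left arm these shares were 32.4% and 13.4%, and in the centre 71.1% and 49.9%.

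Each of the 11 gaps over 100 kb in replicate 1 held peaks in replicate 2, but 10 of them held fewer per Mb than the 115 of the right arm as a whole. Over the 11 gaps replicate 2 had 71.2 peaks per Mb, with a range of 36.7 to 159. The longest, IV:17320430-17493593, held 7 peaks in replicate 2. The next 4, in order of length, were IV:14282537-14453278 with 11, IV:16675736-16845451 with 27, IV:13036099-13204834 with 13 and IV:12423488-12567516 with 6. The highest density of replicate 2 peaks was in the third of these.

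Stretches that held no peak in either replicate were shorter. There were 13 over 50 kb and 0 over 100 kb on the right arm, against 10 and 1 on the left arm and 30 and 6 in the centre. The longest was IV:12932772-13013750, of 81.0 kb, and the whole-series list had 1 peak in it. It was followed by IV:14658982-14739210 with 80.2 kb, IV:15896276-15971153 with 74.9 kb, IV:16286025-16359954 with 73.9 kb and IV:14328559-14399398 with 70.8 kb. The third held 1 peak of the whole-series list and the other three held 0. They were spread over the right arm, 1 of them outside the piRNA band and 4 inside it. The last 100 kb before the final peak end, which closes the section by definition, held 1 peak in replicate 1 and 2 in replicate 2.

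Peaks lying less than 5 kb apart were joined into runs. The longest run on the right arm spanned 32.9 kb with 23 peaks in replicate 1 (IV:13481369-13514275) and 39.1 kb with 19 peaks in replicate 2 (IV:16480329-16519420). In the whole-series list it spanned 42.7 kb with 23 peaks (IV:13477129-13519872), around the centre-side edge of the piRNA band. The longest runs of the left arm spanned 58.1 kb, 73.0 kb and 147 kb in the same lists. Peaks that belonged to no run made up 17.0% of the right arm's peaks in replicate 1 and 15.8% in replicate 2. On the left arm they were 3.98% and 6.06%, and in the centre 23.8% and 23.5%. The right arm stood between the other 2 sections in this measure in both replicates.

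In width the right arm's peaks differed little from those elsewhere on the chromosome. The median was 265.5 bp in replicate 1, 309 bp in replicate 2 and 320.0 bp in the whole-series list. On the left arm it was 273, 343.5 and 388 bp, and in the centre 244, 282.5 and 280.0 bp. Within each replicate the arms differed by less than the replicates of either arm did. The narrowest peak was 146 bp in each list, and the widest 3602 bp in replicate 1, 8854 bp in replicate 2 and 11691 bp in the whole-series list. Peaks of 1 kb or more numbered 30 (7.18%) in replicate 1, 75 (11.2%) in replicate 2 and 93 (12.5%) in the whole-series list. Peaks of 2 kb or more numbered 6, 19 and 29. In score the right arm's peaks lay between those of the other sections, with a median percentile of 46.1 and 45.1 in replicates 1 and 2, against 51.3 and 56.3 on the left arm and 40.2 and 38.2 in the centre.

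Of the 744 peaks of the whole-series list on the right arm, 211 (28.4%) were overlapped by at least 1 bp in both replicates, against 37.2% over the genome. Another 354 (47.6%) were overlapped in replicate 2 alone, against 39.1% over the genome. In replicate 1 alone 75 (10.1%) were overlapped, against 9.46%, and 104 (14.0%) in neither, against 14.3%. The exact (Clopper-Pearson) 95% interval of the share in both was 25.1% to 31.7% on the right arm and 36.8% to 38.5% over the rest of the series. These intervals cover counting error only, and neighbouring peaks are not independent. On the left arm the share in both was 45.2%, and in the centre 20.9%. Among the 12 arms the right arm of IV ranked 10, counted from the highest share. The share in replicate 2 alone was above the background, and those in neither and in replicate 1 alone were near it.

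The share in both replicates was lower on the right arm at each level of score, with intervals apart only in the highest. In the lowest 25% of scores of the whole-series list (Q1) 3 of 208 right arm peaks (1.44%) were in both replicates, against 2.20% of the rest. In the next 25% (Q2) the shares were 8.33% on the right arm and 12.6% in the rest, and in Q3 40.3% and 47.9%. In the highest 25% (Q4) 116 of 146 peaks on the right arm (79.5%, 72.0% to 85.7%) were in both, against 87.3% (86.1% to 88.3%) of the rest. The intervals of the right arm and the rest did not overlap in Q4 and overlapped in Q1, Q2 and Q3. In Q4 no right arm peak was missing from replicate 2 (0 of 146, with an upper exact bound of 2.49%), against 3 of 3485 in the rest.

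**Figure D4:**
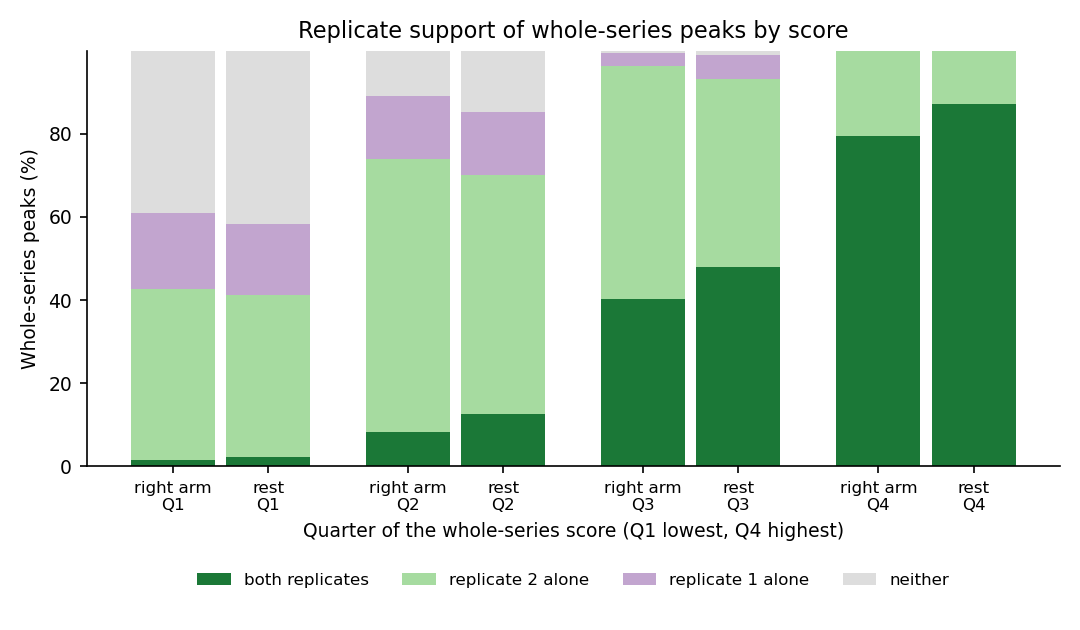
Share of whole-series peaks (y axis, percent) overlapped in both replicates, in replicate 2 alone, in replicate 1 alone and in neither, on the right arm of chromosome IV (left bar of each pair) and in the rest of the series (right bar), by steps of 25% of the whole-series score (x axis, Q1 lowest, Q4 highest). The share in both is lower on the right arm in each step, with 79.5% against 87.3% in Q4.

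Support followed width and score, on the right arm as in the rest of the series. A wide peak meets the 1 bp rule more easily, and the making of the whole-series list is not given. The link is therefore partly built into the measure and is given as a description. Of the 93 right arm peaks of 1 kb or more, 78 (83.9%) were in both replicates, against 133 of 651 (20.4%) of the narrower ones. In the rest of the series the shares were 86.5% of the wide peaks and 29.5% of the narrower ones. The median width was 788 bp for peaks in both replicates, 293 bp for those in replicate 2 alone, 250.0 bp for those in replicate 1 alone and 188 bp for those in neither. In the rest of the series these medians were 710.0, 289, 230.0 and 186 bp. Of the 104 peaks in neither, 94 were under 300 bp, where the median width of all 744 was 320.0 bp. Width and score had a Spearman correlation of 0.690 over the 744 peaks, which share 1 list.

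**Figure D5:**
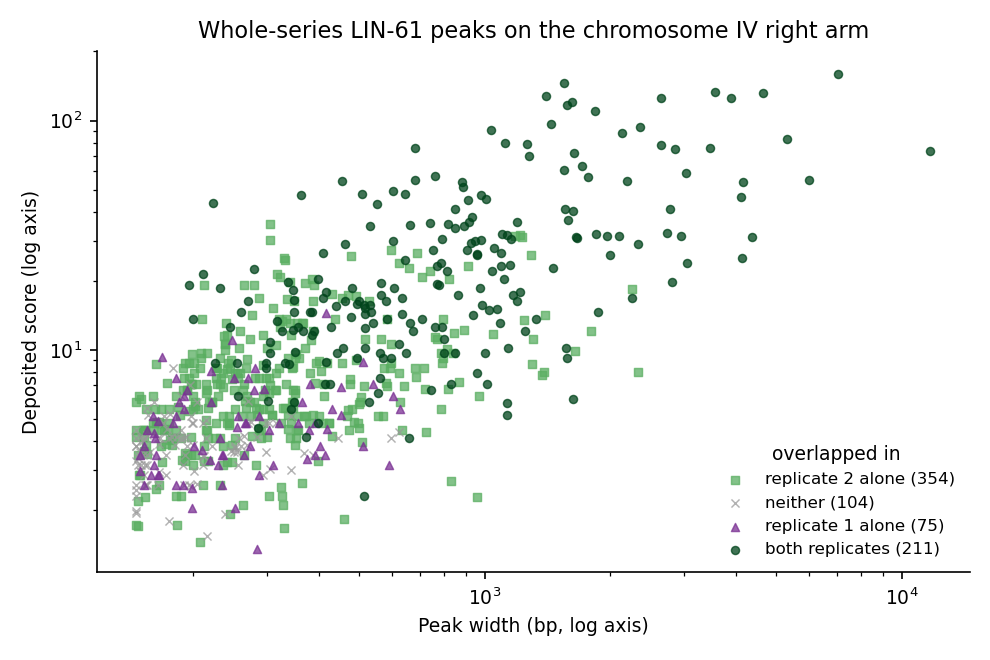
Width (x axis, bp, log scale) and deposited score (y axis, log scale) of the 744 whole-series peaks on the right arm of chromosome IV, with a symbol for each class of replicate support. Peaks in both replicates, with a median width of 788 bp, fill the upper right, and peaks in neither, with a median width of 188 bp, the lower left.

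Support varied along the right arm. In the 12 windows of 500 kb the share in both ranged from 6.25% in the innermost partial window, where 1 of 16 peaks was in both, to 39.4% in the window from 15 Mb, with a median of 27.8%. That window, with 26 of 66 peaks, was above the 37.2% of the genome, but its interval of 27.6% to 52.2% took that value in. The windows from 12.5 and 13 Mb were somewhat below the genome with 23 of 64 and 32 of 94 peaks in both, and the window from 14 Mb had 16.7%. In the piRNA band the share in both was 28.5%, against 29.7% on the centre side of the band and 22.6% on the end side. The intervals of the centre side, 23.8% to 36.2%, and of the end side, 12.9% to 35.0%, both took in the value of the band.

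The replicate lists gave the same picture when set against each other. Of the 418 replicate 1 peaks on the right arm 294 (70.3%) overlapped a replicate 2 peak, against 74.7% over the genome, 77.4% on the left arm and 53.7% in the centre. Of the 669 replicate 2 peaks 237 (35.4%) overlapped a replicate 1 peak, against 47.1% over the genome, 56.3% on the left arm and 31.0% in the centre. Peaks of replicate 2 with no partner had a median width of 258 bp, against 517 bp for those with one.

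Replicate 2 exceeded replicate 1 by more on the right arm than on the left arm. Replicate 2 over replicate 1 in peak number was 1.60 on the right arm, 1.13 on the left arm and 1.45 in the centre. With replicate 2 limited to its 9958 highest-scoring peaks, the length of the replicate 1 list, the right arm held 498 peaks against 418 in replicate 1. That ratio of 1.19 was the 4th highest of the 18 sections, and the left arm had 0.878. At equal list length the excess on the right arm was thus smaller but still present.

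Where a peak of one replicate overlapped one of the other by at least 50% of both, their positions were close. There were 117 such pairs on the right arm, with a median distance between midpoints of 52 bp and a largest one of 338 bp. The replicate 2 peak was the wider in 68 pairs and the replicate 1 peak in 49, with a median ratio of 1.15 in width. Wide peaks were more often broken up: of the 93 whole-series peaks of 1 kb or more, 38 were met by at least 2 peaks of replicate 1 and 34 by at least 2 of replicate 2. A broad stretch can thus count as several peaks in a replicate list.

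The 10 right arm peaks that the whole-series list scored highest were all found in both replicates, and 9 of the 10 lay in the piRNA band. The band is 3.5 of the 5.83 Mb of the right arm. Among the 100 highest of the series were 2 of the 10, while the right arm held 5.07% of all peaks in that list. The first was IV:15075945-15082975, of 7031 bp, with a score of 158.82 and rank 46 in the series. Replicate 1 had 3 peaks in it, the best scored 73.76, and replicate 2 had 1, scored 100.73. Then came IV:16153176-16154719, of 1544 bp, which scored 146.3 (rank 74), with 41.39 in replicate 1 and 115.64 in replicate 2. The third and the fourth were IV:15707390-15710946, scored 132.86, and IV:13929264-13933903, scored 132.37.

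The one of these 10 peaks outside the band was IV:12022078-12025970, of 3893 bp, scored 125.04. It lies in the sparsest whole 500 kb window, and each replicate had 1 peak there, of 2949 bp in replicate 1 and 3826 bp in replicate 2. The remaining 5 were IV:15319804-15321203, IV:16880469-16883109, IV:14739695-14741310, IV:13861416-13862992 and IV:16127962-16129802, with scores from 109.81 to 127.34. The peak IV:14739695-14741310 stands next to one of the longest stretches without a peak in either replicate.

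The widest peak of the right arm was IV:16487597-16499287, of 11691 bp, in the densest 100 kb window. In replicate 1 it was met by 11 separate peaks that covered 71.4% of it, and in replicate 2 by 3 peaks that covered 97.1%. Next came IV:15075945-15082975, named above, and IV:17097858-17103833, of 5976 bp, on the end side of the band, met by 6 peaks in replicate 1 and 1 in replicate 2. The last of the 5 widest were IV:14476121-14481435, of 5315 bp, with 2 peaks in each replicate, and IV:13929264-13933903, of 4640 bp. All 5 were found in both replicates. No genome or annotation of the build of the files was used, so the genes, repeats and sequences under these peaks are not given.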

How the data were processed

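LIN-61 ChIP-seq was analysed from 3 peak lists, 1 for each ChIP library and 1 for the whole series. Reads were aligned with BWA to ce10, per the submitters' processing notes, and peaks were called with MACS on WS220 coordinates, per the file headers. Not given in the sources used here are versions, the calling threshold, the use of the input and the making of the whole-series list. Each deposited list holds a start, an end and a score per peak. The score was used as the authors gave it, to rank and select peaks within a list. The lists give no read counts, so the depth is unknown.

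The last peak end in the 3 lists closed each chromosome. A peak belonged to the section or window that held its midpoint, and windows of 100 kb and 500 kb were counted from position 1. Means and SDs are over the 2 replicates. Density ratios were tested on the log2 scale by an exact permutation test of the signs of both replicates, two-sided. Shares have exact 95% binomial intervals. Named are the 10 highest-scoring and the 5 widest members, the extreme windows and the 5 longest gaps. The members, lists and tests were chosen with earlier results of these data known. The alternatives concerned which peaks enter, merging, covered bases, arm and band limits, window grid and size, overlap rule, list and replicate. Lists of equal length, each side of the band as the rest, the rest without the innermost part, and the band ratio in the outer 25% were added after the data were seen. The scripts were tested on simulated data and used Python 3.11.15, numpy 2.4.6, pandas 2.3.3, scipy 1.17.1 and matplotlib 3.10.9.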

Additional observations from a re-analysis of the deposited data

How the results depend on the processing

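The results were recomputed under the alternatives that apply to each, which gave 68 values. Of these, 52 stayed within the spread between the replicates (the 95% interval for shares) or, for ratios, on the same side of 1, and 14 moved by more. The 52 include the values with 1 replicate left out, other than shares, and those were bound to stay. Each of 2 replicates lies within 1 SD of their mean, and both replicates gave ratios on the same side of 1. Those values therefore say nothing about stability. For empty windows the SD (7.44) was larger than the mean (5.26%), so that limit was wide. The other 2 of the 68 were ratios of the piRNA band to the rest of the arm, by peak number, that changed direction. Both were added after the data had been seen: 0.898 without the innermost part up to 12.5 Mb, and 0.825 with the outer 25% as arms. Under the other 10 alternatives that ratio ranged from 1.08 to 1.41, and the right to left arm density ratio ranged from 0.333 to 0.504 under 8. Where both replicates gave a ratio, the exact permutation test gave p = 0.5, its lowest possible value, and single lists were not tested. With the higher-scoring 50% of each list the density was 43.4 peaks per Mb, the median width 472.5 bp, the longest gap 262 kb and the share of members in both replicates 33.4%. Merging of peaks within 500 bp of each other moved 3 values beyond the spread: the dispersion index of 100 kb windows was 2.74, the median width 381.5 bp and the share in both replicates 35.2%. In place of density, covered bases made up 4.56% of the arm. The whole-series list gave 128 peaks per Mb and a median width of 320.0 bp. A reciprocal overlap of 50% lowered the share in both replicates to 12.2%, and the midpoint rule to 18.8%. With 1 replicate left out, the share of members found in the other ranged from 38.4% to 75.9%. The cause of these shifts was not tested beyond what each alternative leaves out or joins. No paired analysis was possible because the replicate numbers pair ChIP with input libraries, and only ChIP peak lists were analysed. With 2 replicates and unknown depth, an empty window in 1 list says only that no peak was called there.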
